A study of Mus musculus with 18 samples.

Results

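C3H10T1/2 cells that carry the lysine-to-methionine change K36M on histone H3.1 were compared with C3H10T1/2 cells that carry it on histone H3.3. C3H10T1/2 is a line of multipotent mesenchymal cells from C3H mouse embryos, which can be driven toward fat, cartilage, bone and muscle. Both lines stably express the mutant histone with a FLAG-HA tag, and each line has 2 libraries of RNA sequencing from cultured cells at passage 10 to 15, so 4 of the 18 libraries of the series enter the comparison. Every gene with a value of at least 10 in at least 2 of these 4 libraries was used, which kept 13112 of the 20325 genes in the table. Of these, 12196 reached the minimum in both libraries of both lines, 695 in both libraries of H3.3K36M cells alone, 166 in both of H3.1K36M cells alone and 55 in 1 library of each line. A gene that passed through 1 line alone was kept because it is high there, and the counts below hold such genes. The gene nearest to the minimum on the inside was Gm9705, with a second-highest value of 10.0, and the nearest outside was Ttc30a2, with 9.91.

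The other groups served to place the levels. Cells stably expressing FLAG-HA-tagged wild-type H3.3 (n = 2) were cultured alongside in the same table, as were 6 tumors that grew 5 to 6 weeks after 2000000 H3.3K36M cells in Matrigel were injected under the skin of athymic SCID mice of 6 to 8 weeks. Such mice keep macrophages and other innate cells, so tumor values mix injected and host cells. The parental cells treated with a scramble siRNA (control siRNA, n = 3) carry no tagged histone. They come from another table and were brought to the same scale through the libraries that both tables hold. There is no line with wild-type H3.1. Each histone line is 1 line, the promoter of the transgene is not given in the sources used here, and the labels do not say that the libraries of a line came from separate cultures, so the p-values rest on the scatter of these libraries alone, and that scatter may be technical.

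Nucleosomes hold these H3 forms among others. H3.1 and its near copy H3.2 are made in S phase from clustered genes of the Hist1 and Hist2 loci. Both are placed behind the replication fork by the chaperone CAF-1. Levels of the clustered genes given below are therefore not those of H3.1 alone. H3.3 is made throughout the cell cycle from H3f3a and H3f3b. It is placed at active genes and regulatory elements by HIRA and at repeats by DAXX and ATRX. Lysine 36 of H3 is methylated by NSD1, NSD2 (listed as Whsc1) and SETD2 along gene bodies and between genes, and methionine at this position blocks these enzymes, so that the mark is lost across the genome and Polycomb's mark on lysine 27 can spread. K36M is known from chondroblastoma, a cartilage tumor, where it lies on an H3.3 gene. The comparison sets the same change on one H3 form against the other.

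To show what separates the H3.3 genes from the clustered genes, the mouse coding sequence around codon 36 is given below, 5′ to 3′. It runs from codon 31 to codon 41 of the GENCODE M21 transcripts, with codon 36 in capitals and codons counted after the initiator. The codon is AAG in each of the 13 native H3 genes read, and the bases around it differ between the H3.3 genes and the clustered genes.
H3f3a: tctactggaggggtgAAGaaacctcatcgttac
H3f3b: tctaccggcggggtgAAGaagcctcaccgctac
Hist1h3b: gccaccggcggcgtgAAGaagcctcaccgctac
Hist2h3c1: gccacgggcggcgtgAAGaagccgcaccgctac
Over the whole coding sequence of 408 bases, the Hist1h3 and Hist2h3 genes were 93.63 to 99.75% identical to each other, H3f3a and H3f3b were 76.72% identical, and either of these was 76.96 to 81.62% identical to the clustered genes. The table has 1 row per gene and no row for a tagged histone. Reads from the transgene and from the native genes of like sequence therefore cannot be told apart, and counts among the clustered genes are uncertain because their copies share reads.

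Values below are normalised estimated counts: RSEM estimates divided by 1 factor per library. A difference is H3.1K36M minus H3.3K36M on the log2(value + 1) scale, with its standard error (SE) after ±, and a gene is called higher or lower where limma's adjusted p is below 0.05. Where values are given as a pair against or to another pair, the first pair is the 2 H3.3K36M libraries and the second the 2 H3.1K36M libraries, each in the order of replicate 1 and 2. The 4 libraries held 34022137 to 56041798 estimated reads.

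The lines differed at most genes, mostly by a little. Of the 13112 genes tested, 4738 were higher (36.1%) and 4312 lower (32.9%) in H3.1K36M cells, 9050 in all (69.0%), with a median difference over all genes of log2 0.01. These shares are the ones to set beside the count of every gene list below. At least 2-fold differences were found at 1670 genes (12.7%), and these leaned toward lower values: 370 were higher (2.82%) and 1300 lower (9.91%). In the same fit, at least 2-fold differences from wild-type H3.3 cells numbered 1684 higher (12.8%) and 1401 lower (10.7%) for H3.1K36M cells, and 1758 higher (13.4%) and 939 lower (7.16%) for H3.3K36M cells. These 2 comparisons share the wild-type libraries.

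The lean toward lower values was widest in weakly expressed genes and reached up to a mean of 1000. Among 1302 genes with a mean below 30 over the 4 libraries, 86 were at least 2-fold higher and 536 lower. Among 1180 genes with a mean of 30 to 100, 73 were higher and 310 lower, and from 100 to 1000 the counts were 135 and 360 of 4379 genes. Above that the directions were nearly even, with 70 higher and 87 lower of 5682 genes with a mean of 1000 to 10000, and 6 higher and 7 lower of 569 genes above 10000. The H3.1K36M libraries listed 4634 and 4848 genes at 0 and the H3.3K36M libraries 3801 and 4161, and their medians over the table were 135 and 138 against 161 and 163. After quantile normalisation, which makes these distributions equal, 613 genes were at least 2-fold higher and 913 lower, so the share of higher genes went from 22.2% to 40.2%. The counts of higher and lower genes were then 190 and 308 at means below 30, 176 and 200 from 30 to 100, and 182 and 304 from 100 to 1000. Of the 1300 lower genes 906 (69.7%) were among the 913, and of the 370 higher genes 358 (96.8%) were among the 613.

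**Figure D1:**
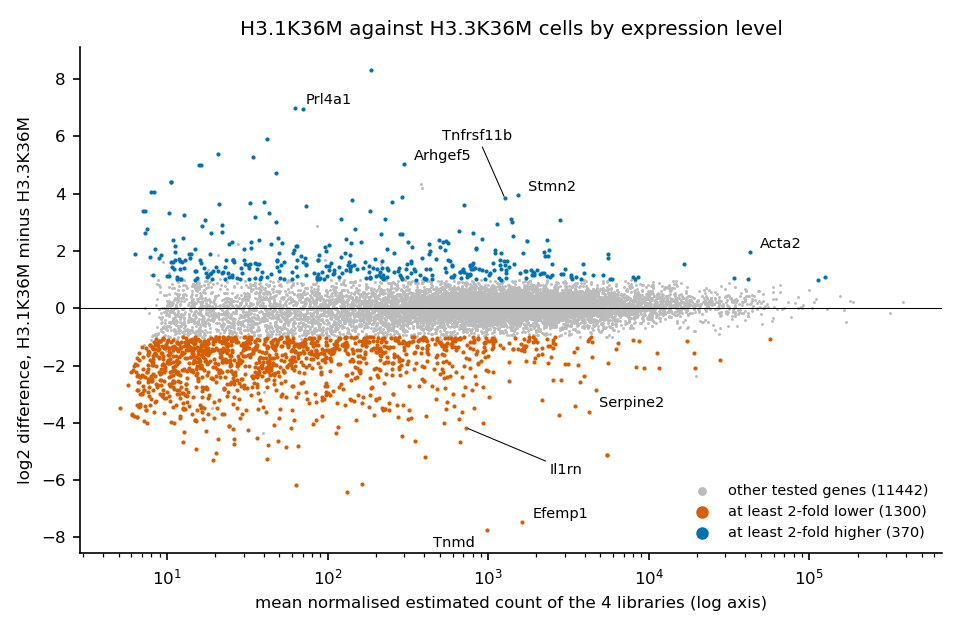
Log2 difference of H3.1K36M minus H3.3K36M cells (vertical axis) against the mean normalised estimated count of the 4 libraries (horizontal log axis), 1 point per gene tested. The 370 genes at least 2-fold higher (blue) spread over all levels, and the 1300 at least 2-fold lower (orange) are densest at means below 100.

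A property of the libraries goes with the lines. The share of whole estimates among low genes (1 to 20 reads) was 84.2% in both H3.1K36M libraries, 81.4 to 86.7% in the tumors and 77.2 to 78.6% in the H3.3K36M and H3.3 wild-type libraries (tolerance 0.01). Whether the H3.1K36M libraries were prepared, sequenced or processed apart from the H3.3 libraries is not given in the sources used here. Such a difference and the histone carrier cannot be told apart, which bears on every difference between the lines given here. Genes that share reads with near copies are named as uncertain below. Over the genes with whole estimates in both libraries and at least 20 reads in their sum, libraries of 1 line differed by more than counting noise (mean chi-square per gene of 1.28 over 2430 genes in H3.3K36M, p = 1.69e-19, and 1.10 over 2753 genes in H3.1K36M cells, p = 0.000137).

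The histone genes come first, since the carriers are histones. The summed level of the 11 Hist1h3 and Hist2h3 coding genes was 15104 and 13582 in the H3.3K36M libraries and 9087 and 9985 in the H3.1K36M libraries, against 14140 and 14904 in wild-type H3.3 cells. The H3.1K36M libraries were the lowest of the 3 lines. Tumors summed to 1542 to 2662, and control siRNA cells, which carry no tagged histone, to 68.9 to 88.7. All 3 tagged lines, the H3.3 ones included, thus stood far above the parental cells on these rows, without overlap. Other clustered histone genes (56 genes of H1, H2A, H2B and H4) did not follow that pattern: they summed to 7234 to 7542 in H3.3K36M, 7633 to 8023 in H3.1K36M, 21372 to 22093 in wild-type H3.3 and 6599 to 7231 in control siRNA cells.

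Hist1h3a and Hist1h3b were both lower in H3.1K36M cells. Hist1h3b was at 4778 and 4869.6 in H3.3K36M and 976 and 736 in H3.1K36M cells (log2 fold change -2.51 ± 0.15, adjusted p = 0.000296), with 5118 and 5159 in wild-type H3.3 cells and 73.6 to 247 in tumors. Hist1h3a was at 8131 and 6987 against 4707 and 5142 (log2 -0.62, adjusted p = 0.000268). The groups did not overlap at either gene, and control siRNA cells were near 0 at both (1.28 ± 2.21 and 1.98 ± 3.44). In the other direction Hist1h3i went from 342 and 404 to 773 and 831 (log2 1.11, adjusted p = 8.66e-07). Hist1h3d, Hist1h3e, Hist1h3g, Hist1h3h, Hist2h3b and the pseudogene Hist2h3c2-ps did not pass the test. Hist1h3e was at 45.6 and 44.4 against 148 and 148, a gap that passed in a fit over these 4 libraries alone (adjusted p = 2.85e-08) but not beside the wild-type libraries, which were at 60.9 and 8.71. Hist2h3b was at 11.8 and 10.9 against 0 and 21.98, and passed as lower without H3.1K36M replicate 2 (adjusted p = 0.000142). Hist1h3c (log2 -1.08) passed, but not after quantile normalisation (log2 -0.60, adjusted p = 0.0508). Hist1h3f and Hist2h3c1 passed (adjusted p = 0.015 and adjusted p = 0.00406) at low levels, but not after quantile normalisation (adjusted p = 0.13 and 0.123). Hist1h3f lost the call without any 1 of the 4 libraries (adjusted p from 0.0543 to 0.117), and Hist2h3c1 without H3.1K36M replicate 2 (0.0713) or H3.3K36M replicate 1 (0.0716).

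The replication-independent H3 genes moved less. H3f3a was at 12752 and 13498 in H3.3K36M and 11806 and 11999 in H3.1K36M cells (log2 -0.14, adjusted p = 0.00142), and H3f3b at 26665 and 27826 against 19676 and 19721 (log2 -0.47, adjusted p = 5.96e-09). Both were lower in H3.1K36M cells, and wild-type cells were higher than either mutant line (22995 and 22831 for H3f3a). Over the whole list of clustered histones, 9 of 42 tested genes were higher and 11 lower (median log2 -0.01), which became 14 and 5 after quantile normalisation. The higher count fell to 5 without H3.1K36M replicate 2 or without H3.3K36M replicate 2, and the lower count to 5 without H3.3K36M replicate 1. Hist1h2bg was one of the higher ones (57.4 and 47.5 to 142 and 176, log2 1.58). Of 19 genes for H3.3 and histone chaperones 5 were higher and 10 lower, 3 and 13 after quantile normalisation. Asf1b, the H3-H4 chaperone of dividing cells, went from 2052 and 2129 to 1293 and 1312 (log2 -0.68), and its paralog Asf1a, which hands H3.3 to HIRA, from 712 and 781 to 1075 and 1054 (log2 0.51). These moved in opposite directions.

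**Figure D2:**
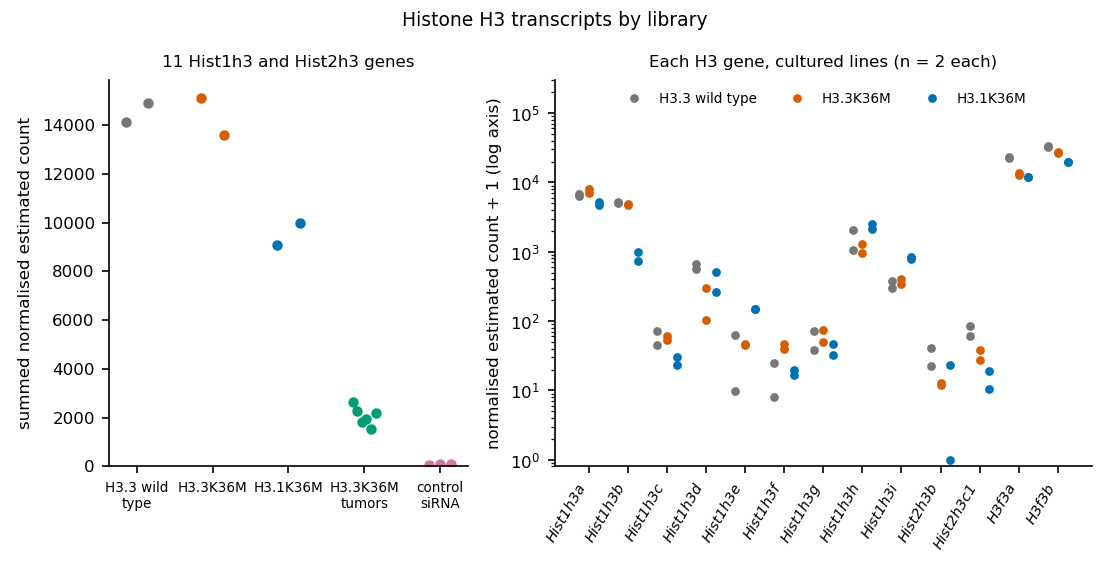
Left, summed normalised estimated count of 11 Hist1h3 and Hist2h3 genes in each library of 5 groups; right, the value + 1 of each H3 gene in each library of the 3 cultured lines (log axis). The H3.1K36M points of Hist1h3b lie below both other lines, and those of Hist1h3i above them.

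The enzymes that the mutant histone blocks were expressed at like levels in both lines. Of 8 H3K36 methyltransferase genes, 2 were higher and 4 lower; the higher count was 1 after quantile normalisation or without H3.1K36M replicate 1. Whsc1 was at 5704 and 5740.2 in H3.3K36M and 4815 and 4799 in H3.1K36M cells (log2 -0.25, adjusted p = 7.8e-06), both above wild-type cells (2789.7 and 2771). Setd2 was at 4011 and 4186 against 3767 and 3667 (log2 -0.14). Nsd1 was at 5830.1 and 6171 against 6684 and 6459 (log2 0.13, adjusted p = 0.00435), and did not pass without H3.1K36M replicate 1 (adjusted p = 0.0774) or after quantile normalisation (0.124). Ash1l (log2 -0.09, adjusted p = 0.0269) did not pass without H3.1K36M replicate 2 (adjusted p = 0.235) or H3.3K36M replicate 2 (0.0706), and Whsc1l1 was at log2 0.08 (adjusted p = 0.0713). None of these 5 differed by as much as 1.5-fold. The largest difference in the list was at Setmar (65.3 and 70.2 to 27.9 and 30.7, log2 -1.18), a SET domain gene.

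Among 25 H3K36 demethylases and readers 5 were higher and 14 lower, 3 and 15 after quantile normalisation. Phf19, the Tudor-domain partner of Polycomb that binds methylated lysine 36, was 522 and 508 in H3.3K36M and 172 and 174 in H3.1K36M cells (log2 fold change -1.57 ± 0.08, adjusted p = 2.98e-10), with 326 and 331 in wild-type H3.3 cells. The H3.1K36M libraries were the lowest of the 6, and control siRNA cells were lower still (129 ± 4.52). Polycomb genes were even, with 10 higher and 10 lower of 34. Of the core of the lysine 27 methyltransferase, Ezh2 was at 1416 and 1521 against 1462 and 1473 (adjusted p = 0.993) and Suz12 at 3259.9 and 3506 against 3495 and 3512 (adjusted p = 0.282; 0.0401 without H3.3K36M replicate 2). Eed was at log2 0.18 (adjusted p = 0.00979; 0.151 without H3.1K36M replicate 2). Ezh1, the form of non-dividing cells, was 2949 and 2867 against 1579 and 1566 (log2 -0.89). Of 16 DNA methylation genes 5 were higher and 7 lower. Dnmt3a, whose PWWP domain reads methylated lysine 36, was at 1949 and 1857 in H3.3K36M, 1034 and 960.5 in H3.1K36M and 2548 and 2595 in wild-type cells (log2 -0.93, adjusted p = 3.04e-10). The 3 lines did not overlap.

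The 12 genes with the largest higher and the 12 with the largest lower differences, among called genes with a mean of at least 100 in the higher line and no overlap between the lines, are described next. Tnfrsf11b, which encodes osteoprotegerin, the decoy receptor for the osteoclast signal RANKL, was at 161 and 169 in H3.3K36M and 2348 and 2407 in H3.1K36M cells (log2 fold change 3.84 ± 0.05, adjusted p = 9.89e-17). Wild-type H3.3 cells (5665 and 5461) and control siRNA cells (11022 ± 471) were higher still, and tumors were at 17.7 to 29.8. Has2, a synthase of hyaluronan, was ordered in the same way over the 3 lines, with 35.1 and 27.5 in H3.3K36M, 338 and 333 in H3.1K36M and 667 and 749 in wild-type cells. Cela1, a secreted serine protease, was at 10.4 and 10.4 in H3.3K36M, 137 and 134 in H3.1K36M and 77.5 and 79.4 in wild-type cells. For these 3 genes the level of H3.1K36M cells was nearer to that of wild-type H3.3 cells on the log2 scale.

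Others were higher in H3.1K36M than in both H3.3 lines. Stmn2, a microtubule regulator of neurons, was at 2873 and 2895 in H3.1K36M, 173 and 198 in H3.3K36M and 49.4 and 43.3 in wild-type cells (log2 3.95). Wnt7a, a secreted Wnt ligand, was at 491 and 452 in H3.1K36M, 29.5 and 40.8 in H3.3K36M and 0 and 1.44 in wild-type cells, and at 0 to 3.44 in tumors. Pkp2, a plaque protein of desmosomes, was at 1282 and 1321 in H3.1K36M, 94.8 and 117 in H3.3K36M and 8.02 and 4.33 in wild-type cells (log2 3.62). In each of these the H3.3K36M libraries lay between the other tagged lines. The parental cells with control siRNA stood at 547 ± 38.6 for Stmn2, above both H3.3 lines. They were at 105 ± 20.6 for Pkp2, near the H3.3K36M level, and at 0 for Wnt7a. Arhgef5, an exchange factor for small GTPases, stood at 15.6 and 18.04 against 591 and 568 (log2 5.03), Ppfibp2, a liprin, at 36.99 and 34.2 against 554 and 533, and Gpr176, an orphan receptor, at 19.6 and 17.1 against 271 and 262. Control siRNA cells were at 344 ± 18.1 for Arhgef5, so a level of that order was also present in the parental cells. Prl4a1, a member of the prolactin family, was listed at 0 in all 4 libraries of the H3.3 lines and in control siRNA cells and at 122 and 130.4 in H3.1K36M cells (adjusted p = 1.83e-08). Rps27 and Gm14308 also passed the rule, but both share sequence with near copies and are uncertain. Rps27 was below 0.1 in the 4 H3.3 libraries, 199 and 547 in H3.1K36M cells and 0 to 2022 in tumors, and the 3 control siRNA libraries ran from 0.0231 to 578. Gm14308 was listed at 0 in the H3.3 libraries and at 76.2 and 203 in H3.1K36M cells, and control siRNA cells were higher still (292 ± 11.6).

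Among the lower genes, Tnmd, which encodes the tendon protein tenomodulin, was at 1903 and 2022 in H3.3K36M and 13.3 and 4.79 in H3.1K36M cells (log2 fold change -7.75 ± 0.52, adjusted p = 0.00107). Wild-type H3.3 cells were at 7346 and 7617 and control siRNA cells at 2008 ± 142, so the H3.1K36M libraries stood far under these 3 groups and near the tumors (1.01 to 11.5). Dlk1, a Notch-like ligand of early fat cells, showed the same order, with 131 and 120.5 in H3.3K36M, 2.09 and 0 in H3.1K36M and 478 and 476 in wild-type cells. Gas7, a gene of growth arrest and cell shape, was at 113 and 141 in H3.3K36M, 4.19 and 2.88 in H3.1K36M and 8598 and 8868 in wild-type cells (log2 -4.83). In these 3 genes H3.3K36M cells lay between H3.1K36M and wild-type H3.3 cells.

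A second set was high in H3.3K36M cells and low in both other lines. Efemp1, which encodes fibulin-3 of the matrix, was at 3104 and 3339.5 in H3.3K36M cells, 22.3 and 13.4 in H3.1K36M cells and 21.4 and 24.5 in wild-type cells (log2 fold change -7.46 ± 0.19, adjusted p = 1.56e-13). Asxl3, a partner of the deubiquitinase BAP1, was at 239 and 283 in H3.3K36M, 1.4 and 2.88 in H3.1K36M and 1.34 and 1.44 in wild-type cells. Crym, a thyroid hormone-binding protein, was at 339 and 309 in H3.3K36M, 3.49 and 3.83 in H3.1K36M and 4.01 and 1.44 in wild-type cells. At all 3 the H3.1K36M and wild-type ranges overlapped, while the H3.3K36M libraries stood far above both. Control siRNA cells lay between these levels at Efemp1 (222 ± 33.6) and Asxl3 (26.4 ± 7.16). They were low at Crym (0.558 ± 0.967). Tmem176a and Tmem176b, neighbouring membrane proteins best known from myeloid cells, were both lower, Tmem176a at 664 and 679 against 30.01 and 23.003 and Tmem176b at 1264 and 1321 against 48.8 and 49.8. Tumors grown from H3.3K36M cells were higher again (median 7871 for Tmem176b). Cadm3, an adhesion molecule, was at 105 and 108 in H3.3K36M and 6.28 and 0.958 in H3.1K36M cells, and was listed at 0 in wild-type cells. Sprr2a1 and Sprr2a2, small proline-rich proteins of the cornified envelope, share their reads and have identical values: 10762 and 10765 in H3.3K36M, 303 and 307 in H3.1K36M and 32.01 and 50.5 in wild-type cells. H2-Q7, a class I gene with near copies, was at 809.8 and 742 against 60.3 and 6.38 (adjusted p = 0.0325), and lost the call without either H3.3K36M library (adjusted p = 0.129 without replicate 1 and 0.124 without replicate 2) and in a fit over the 4 libraries alone (0.0865).

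**Figure D3:**
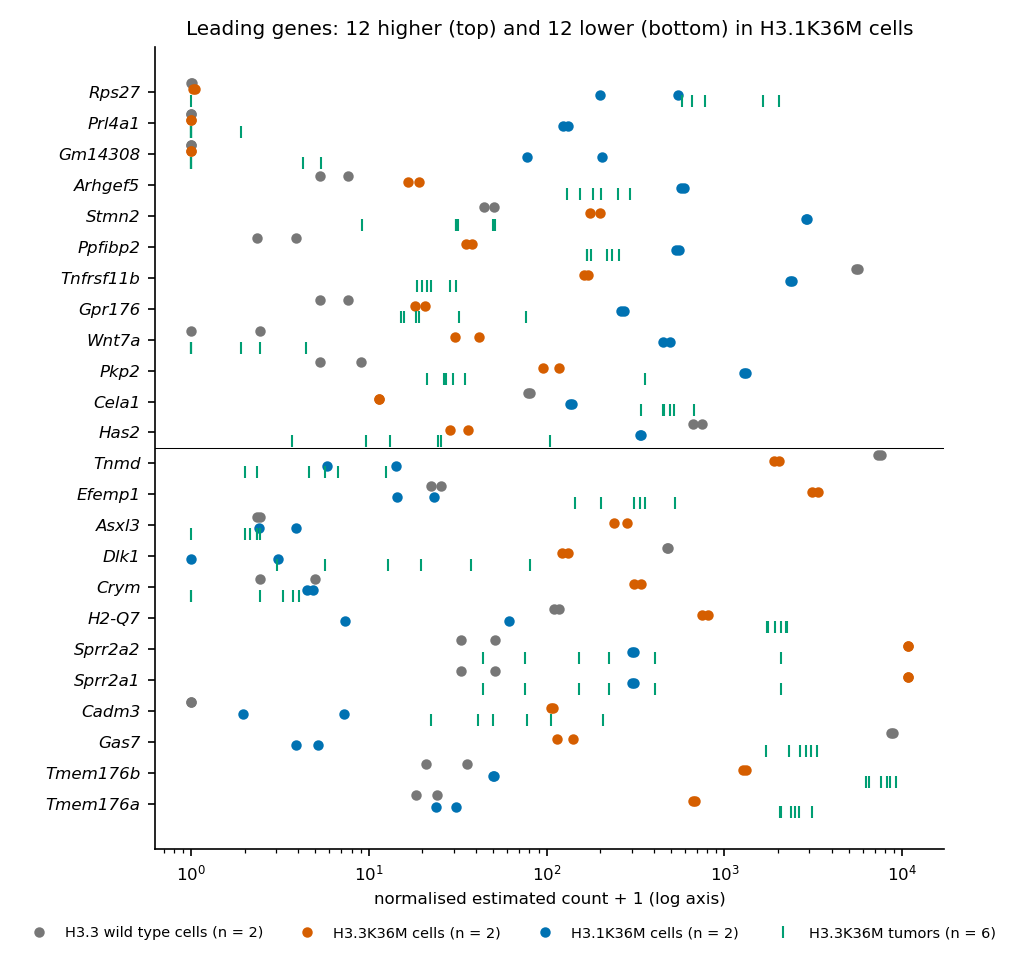
Normalised estimated count + 1 (log axis) of the 24 leading genes in each library of wild-type H3.3 (grey), H3.3K36M (orange) and H3.1K36M cells (blue, n = 2 each) and in 6 H3.3K36M tumors (green ticks). The 2 libraries of a line lie close together at most genes, and the wild-type points fall on either side, near H3.3K36M for Stmn2 and near H3.1K36M for Efemp1.

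Cartilage genes were mostly lower in H3.1K36M cells. Of 25 tested, 18 were lower and 4 higher (median log2 -0.85; -0.66 after quantile normalisation), 11 of them at least 2-fold lower, where 32.9% of all genes were lower and 9.91% at least 2-fold. Sox9, the master regulator of chondrocytes, was at 2388 and 2273 in H3.3K36M, 901 and 817 in H3.1K36M and 15948 and 16689 in wild-type H3.3 cells (log2 fold change -1.44 ± 0.05, adjusted p = 2.4e-12). Its partner Sox6 was at 26.01 and 30.4 in H3.3K36M, 7.68 and 3.83 in H3.1K36M and 3042 and 3346 in wild-type cells. Col9a1, a collagen on the surface of cartilage fibrils, was at 162 and 183 in H3.3K36M, 11.9 and 11.5 in H3.1K36M and 4793 and 4859 in wild-type cells (log2 -3.77). Cytl1 was at 11.6 and 14.4 in H3.3K36M cells, listed at 0 in both H3.1K36M libraries and at 5432 and 5628 in wild-type cells. Lect1, which encodes chondromodulin and is the relative of Tnmd, was at 44.5 and 51.3 in H3.3K36M, 5.58 and 3.83 in H3.1K36M and 4525 and 4863 in wild-type cells. At all 5 genes the order was wild-type, then H3.3K36M, then H3.1K36M, with no overlap between lines. Prg4, the lubricin of joint surfaces, differed little between wild-type and H3.3K36M cells: it was at 408 and 409 in wild-type, 362 and 364 in H3.3K36M and 40.1 and 39.7 in H3.1K36M cells (log2 -3.15). Control siRNA cells were below all 3 lines at Prg4 (9.13 ± 4.84). Col2a1, the main collagen of cartilage, went the other way from its regulator, with 8839.9 and 8265 in H3.3K36M and 11219.7 and 11233 in H3.1K36M cells (log2 0.39, adjusted p = 9.68e-08). Chst11, a chondroitin sulfotransferase, was also higher (344 and 317 to 639.9 and 636). Acan, which encodes aggrecan, was under the minimum in both mutant lines (2.31 and 0 in H3.3K36M, 0 in H3.1K36M cells) and at 582 and 578 in wild-type cells.

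Other mesenchymal fates were mixed. Of 8 tendon genes 3 were higher and 5 lower, and the lower count was 3 without either H3.1K36M library. Next to Tnmd, Dcn, the proteoglycan decorin, was at 698 and 828 against 61.4 and 49.8 (log2 -3.76, adjusted p = 5.82e-13), while the tendon regulators Scx and Mkx were slightly higher, Scx at 1309 and 1335 against 1686 and 1803 and Mkx at 429 and 402 against 557 and 556. Of 25 adipocyte genes 10 were higher and 11 lower. Pparg, the master regulator of fat cells, was at 373 and 422 in H3.3K36M and 969.8 and 972 in H3.1K36M cells (log2 fold change 1.29 ± 0.06, adjusted p = 2.83e-10), the latter near the wild-type level (962 and 939.9), whereas its partner Cebpa went from 309.8 and 302 to 115 and 119.9 (log2 -1.37). Acsl1, an acyl-CoA synthetase, was higher (1112 and 1195 to 2631 and 2580.4), and Lpl, lipoprotein lipase, lower (355 and 387 to 143 and 144). Of 22 osteoblast genes 8 were higher and 9 lower. Postn, periostin, was higher (1042 and 1048 to 3695 and 3656), and Mgp, the inhibitor of calcification, lower (15036 and 15376 to 3626 and 3567, log2 -2.08), as was Spp1, osteopontin (40847 and 45079.6 to 12414 and 12228). Runx2, the bone regulator, was at log2 -0.14 (adjusted p = 0.0173), and did not pass without H3.1K36M replicate 1 (adjusted p = 0.168) or H3.3K36M replicate 1 (0.174).

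Smooth muscle and contractile genes leaned the other way: 12 of 17 were higher and 4 lower, where 36.1% of all genes were higher and 32.9% lower. The median was log2 0.62, and 0.49 after quantile normalisation. Acta2, smooth muscle actin, was at 17983 and 16842 in H3.3K36M and 68224 and 66604 in H3.1K36M cells (log2 fold change 1.95 ± 0.04, adjusted p = 5.04e-15). Myl9, a myosin light chain, was at 1999.6 and 1988 against 5747 and 5769 (log2 1.53), Synpo2 at 118 and 129 against 554 and 533, and Ldb3, of the Z-disc, at 168 and 182 against 867 and 870.2. At each of these 4 the H3.1K36M libraries were the highest of the 6 cultured libraries of the table. Flna, filamin A, was also higher (77276 and 73894 to 151106 and 151975). Myh11, the myosin of mature smooth muscle, did not pass (21.5 and 22.1 to 12.6 and 21.1), and Mylk, the kinase of myosin light chains, was lower (556 and 540.1 to 265 and 263).

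By number of genes, most matrix lists leaned lower. Over all genes 36.1% were higher, 32.9% lower and 9.91% at least 2-fold lower. Of 25 collagens 8 were higher and 14 lower (10 at least 2-fold). Of 33 matricellular and small proteoglycan genes 8 were higher and 21 lower, and of 21 genes of elastic fibres and lysyl oxidases 4 were higher and 15 lower. The summed level of the collagens was higher, from 785328 to 838141 in H3.3K36M and from 864335 to 875624 in H3.1K36M cells. The sums of the other 2 lists were lower in H3.1K36M cells. Col8a2, a network-forming collagen, was at 1227 and 1279.6 against 184 and 188 (log2 -2.75, adjusted p = 4.23e-15), and Col28a1 at 135 and 135 against 11.2 and 18.2. Prelp, a leucine-rich proteoglycan, was at 1081 and 1077 in H3.3K36M, 128 and 143 in H3.1K36M and 57148 and 57801 in wild-type cells (log2 -2.99), and its relative Ogn at 12828 and 14035 in H3.3K36M, 3124 and 3346 in H3.1K36M and 39821 and 41413 in wild-type cells. In both, the libraries of the 3 lines were well apart and those of H3.1K36M cells were lowest. Mfap5, a microfibril protein, was at 619 and 612 against 34.9 and 50.8 (log2 -3.84). Eln, elastin, was at 80.1 and 102 in H3.3K36M and 4.88 and 19.2 in H3.1K36M cells (adjusted p = 0.0327), with 33491 and 35911 in wild-type cells, and did not pass without either H3.3K36M library (adjusted p = 0.117 and 0.139). Lox, the collagen crosslinking enzyme, was at 90774 and 88803 against 88230.1 and 90655, a difference within the spread (adjusted p = 0.866), but passed as lower after quantile normalisation (log2 -0.31, adjusted p = 2.4e-07). Vcan, versican, was higher (8611 and 9074 to 15124 and 15323). Proteases and inhibitors were even, with 12 higher and 13 lower of 27. Serpine2, an inhibitor of thrombin and plasminogen activators, was at 7566 and 8030.3 in H3.3K36M and 636 and 642 in H3.1K36M cells (log2 fold change -3.61 ± 0.04, adjusted p = 1.16e-17), against 27369 and 27732 in wild-type cells.

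Several signalling lists were lower, where 36.1% of all genes were higher and 32.9% lower. Of 48 Wnt pathway genes 12 were higher and 27 lower (median log2 -0.51; -0.37 after quantile normalisation). By role, the R-spondins Rspo1 (158 and 162 to 8.37 and 11.5) and Rspo3 (436 and 452 to 34.9 and 38.3), which amplify Wnt signals, were lower, and Rspo2 was higher (1375 and 1354 to 1909 and 1902, log2 0.48). Among receptors, the co-receptor Lrp5 was lower (2457 and 2173 to 418 and 383, log2 -2.53) and Lrp6 did not pass (4786 and 4738 to 4722 and 4691). Among antagonists, Notum, which strips the lipid from Wnt, was lower (1457 and 1352 to 417 and 367), and Dkk2 was higher at a low level (2.31 and 0.997 to 23.7 and 23.96). The target Axin2 did not pass (128 and 104 to 123 and 136). Amplifiers and antagonists thus had members in both directions.

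All 11 tested Hedgehog genes were lower (median log2 -0.43), and 9 after quantile normalisation. For this and the next lists, the shares over all genes were 36.1% higher and 32.9% lower. The co-receptors differed most: Boc was at 1006 and 945 against 183 and 197 (log2 fold change -2.35 ± 0.05, adjusted p = 4.72e-14) and Gas1 at 19466 and 18079.9 against 4223 and 4532 (log2 -2.10). The receptor and target Ptch1 differed by less (839.7 and 885 to 642 and 636). The target Gli1 (324 and 312 to 269 and 282, adjusted p = 0.0232) did not pass without H3.1K36M replicate 1 (adjusted p = 0.129), without H3.3K36M replicate 1 (0.101) or after quantile normalisation (0.307). Of 19 genes of the insulin-like growth factor system 3 were higher and 15 lower (13 after quantile normalisation). Both ligands were lower, Igf1 (89.05 and 113 to 23.7 and 20.1) and Igf2 (424 and 413 to 33.7 and 38.3, log2 -3.50), as was the binding protein Igfbp4 (29081 and 27833 to 9611 and 9867), while Igfbp7 was higher (8643 and 8161 to 24029.6 and 25531). Igf2 stood at 60.1 and 40.5 in wild-type cells, just above H3.1K36M cells. Of 15 Notch genes 4 were higher and 9 lower. Jag2, a ligand, was at 443 and 366 against 31.4 and 38.3 (log2 -3.50), and the receptor Notch1 at 1096 and 1002 against 428 and 438. Of 15 retinoid genes 13 were lower and none higher, with 10 lower and 1 higher after quantile normalisation. BMP and TGF-beta genes were even, with 15 higher and 17 lower of 37. Tgfb2, a ligand, was higher (299 and 294 to 761 and 802), as was the activin subunit Inhba (117 and 94.9 to 569 and 491, log2 2.31), and the co-receptor Tgfbr3 was lower (1275 and 1232 to 465 and 428). Of 20 FGF genes 5 were higher and 10 lower; the higher count was 2 or 3 without H3.1K36M replicate 1, H3.1K36M replicate 2 or H3.3K36M replicate 1.

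Hox genes fix position along the body axis and are classic Polycomb targets. The table has 39 Hox genes, and 18 passed the minimum, none of them in the HoxD cluster. Of 8 HoxA genes 1 was higher and 2 were lower, which became 4 higher and 2 lower after quantile normalisation. The lower count was smaller without H3.1K36M replicate 2 or H3.3K36M replicate 1. Hoxa2 was at 445 and 439.5 against 379.6 and 374 (log2 -0.23). Hoxa5 (446 and 384 to 344 and 309, adjusted p = 0.0026) lost the call without H3.1K36M replicate 2 (adjusted p = 0.051) or H3.3K36M replicate 1 (0.0523). Hoxa3 was at 330.1 and 298 against 307 and 302, with 1090.3 and 1102 in wild-type cells, and did not pass (adjusted p = 0.608).

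Calls in the HoxB cluster split along its length. Hoxb3, Hoxb4, Hoxb5, Hoxb6 and Hoxb7 did not pass, with values from 10.5 (Hoxb4) to 61.8 (Hoxb3) in the 4 libraries, and were at 0 to 2.89 in wild-type cells. At such low values a difference may be missed. Hoxb7 passed as higher without the variance trend and robust fit (log2 0.41, adjusted p = 0.0307 in limma). Hoxb9, the most posterior of the HoxB genes tested, was at 712 and 655 in H3.3K36M, 121 and 112 in H3.1K36M and 2.75 and 4.33 in wild-type cells (log2 fold change -2.54 ± 0.19, adjusted p = 2.17e-08), and its neighbour Hoxb8 was at 99.98 and 65.6 against 17.4 and 20.1 (log2 -2.06). At these 2 genes the H3.1K36M libraries lay between the wild-type and H3.3K36M libraries. All 3 tested HoxC genes were lower: Hoxc6 (70.5 and 68.3 to 23.7 and 17.3), Hoxc9 (12.7 and 13.3 to 2.09 and 0) and Hoxc13 (35.3 and 30.4 to 13.96 and 22.04, 643 and 581 in wild-type cells). Hoxc13 did not pass after quantile normalisation (adjusted p = 0.228), and control siRNA cells were at 3.56 ± 4.32 for this gene. Of 50 other developmental transcription factors 14 were higher and 22 lower. Dlx3 was at 38.2 and 38.8 in H3.3K36M cells and listed at 0 in both H3.1K36M libraries, Gata6 at 305 and 288 against 126 and 152, and Irx3, on the higher side, at 286 and 254 against 486 and 581.

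**Figure D4:**
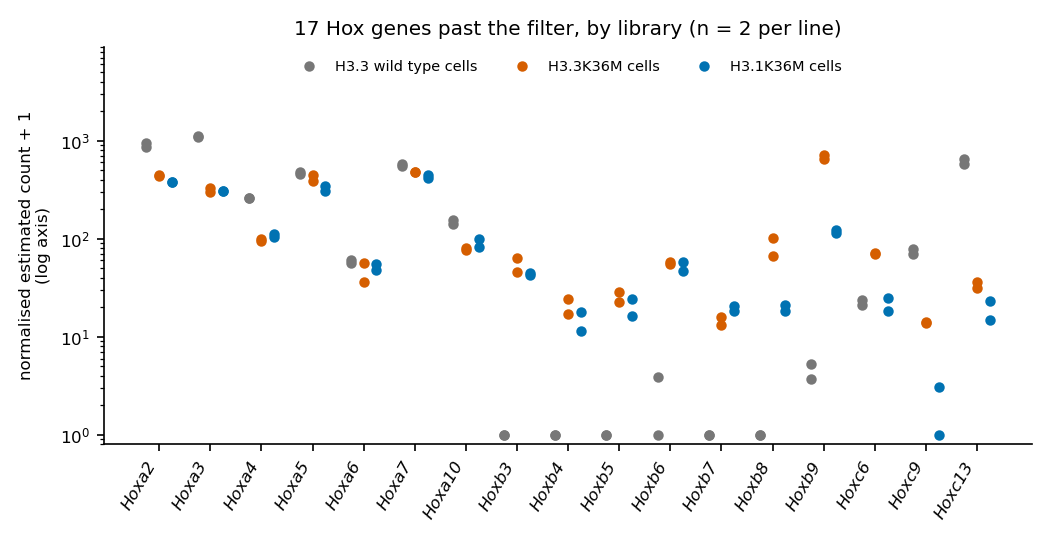
Normalised estimated count + 1 (log axis) of 17 of the 18 Hox genes past the filter, in each library of wild-type H3.3, H3.3K36M and H3.1K36M cells (n = 2 each). Hoxb3 to Hoxb7 lie together in the mutant lines, and Hoxb8 and Hoxb9 are lower in H3.1K36M than in H3.3K36M cells.

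Immune genes were mostly lower, where 32.9% of all genes were lower and 36.1% higher. Of 29 cytokine and chemokine genes 9 were higher and 17 lower (median log2 -0.92; -0.60 after quantile normalisation). Il1rn, the antagonist of the interleukin-1 receptor, was at 1381 and 1396 in H3.3K36M, 75.4 and 76.5 in H3.1K36M and 27618 and 27541 in wild-type H3.3 cells (log2 fold change -4.17 ± 0.04, adjusted p = 1.16e-17). Cxcl12, the ligand of CXCR4, was at 31237 and 31748 against 7315 and 7406 (log2 -2.10), with 28022 and 28268 in wild-type cells. The monocyte attractant Ccl2 was at 911 and 968 against 130 and 138, and its neighbour Ccl7 at 321 and 326 against 34.9 and 59.4; here wild-type cells were lowest (32.1 and 23.1 for Ccl2). Ccl9 (409 and 440 to 2414 and 2447) and Il33 (260.1 and 274 to 876 and 853) were higher. Of 21 antigen presentation genes 18 were lower and 2 higher, 18 and 2 also after quantile normalisation (median log2 -1.08). The class I gene H2-K1 was at 9121 and 8614 in H3.3K36M, 2313 and 2368 in H3.1K36M and 792 and 860.3 in wild-type cells (log2 fold change -1.92 ± 0.05, adjusted p = 7.24e-14), the immunoproteasome subunit Psmb9 at 193 and 189 in H3.3K36M, 50.4 and 46.8 in H3.1K36M and 41.4 and 37.5 in wild-type cells, and the peptide transporter Tap1 at 669 and 635 in H3.3K36M, 289 and 318 in H3.1K36M and 279.9 and 319 in wild-type cells. H3.3K36M cells were the highest of the lines at all 3. Against wild-type cells 16 of the 21 were higher and 1 lower in H3.3K36M cells, and 12 were higher and 3 lower in H3.1K36M cells. Over all genes tested, 39.5% were higher and 36.7% lower in H3.3K36M cells and 42.0% higher and 37.4% lower in H3.1K36M cells; these comparisons share the wild-type libraries.

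Of 44 interferon-stimulated genes 29 were lower and 5 higher (21 and 6 after quantile normalisation), where 32.9% of all genes were lower and 36.1% higher. Interferon acts on many such genes through a promoter element called the ISRE. A pair of GAAA blocks with 2 free bases between them, on either strand, occurred in the 250 bases before the start of 12 of 39 promoter windows that matched 33 of the 44 genes (30.8%), against 2.98% of 32851 windows of all genes (RefSeq, GRCm38.p6). To show how such promoters look, 120 bases are printed for 2 genes of the list that were lower, 5′ to 3′ on the gene's strand, with the matches in capitals.
Ifit1, chr19:34640744-34640863, + strand: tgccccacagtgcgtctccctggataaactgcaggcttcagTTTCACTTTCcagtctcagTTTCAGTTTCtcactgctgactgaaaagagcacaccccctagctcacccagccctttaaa
Ifit3, chr19:34583347-34583466, + strand: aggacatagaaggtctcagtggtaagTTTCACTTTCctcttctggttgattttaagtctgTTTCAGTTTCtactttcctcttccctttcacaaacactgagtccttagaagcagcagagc
Ifit1, which binds RNA without a methylated cap, was at 133 and 154 in H3.3K36M and 54.8 and 29.4 in H3.1K36M cells (log2 -1.81, adjusted p = 1.17e-05), and Ifit3 at 293 and 347 against 131 and 122 (log2 -1.32), with 967 and 1037 in wild-type cells. Oas2, which makes the messenger that turns on RNase L, was at 80.8 and 104 against 8.37 and 13.4 (log2 -2.998). Irgm1 (997 and 1091 to 2091 and 2039.6), Ifi35 (465 and 469.9 to 1061 and 1073) and Isg20 (178 and 166 to 392 and 389) were higher. The list was thus not uniform, and the factor that the letters stand for was not measured.

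Complement genes had 11 lower and 5 higher of 17, where 32.9% of all genes were lower and 36.1% higher. C3, the central component, was at 369 and 352 in H3.3K36M and 24.4 and 27.8 in H3.1K36M cells (log2 -3.74, adjusted p = 7.63e-13). The 3 chains of C1q, made by macrophages, were listed at 0 in the 4 H3.3 libraries and in control siRNA cells, and at 22.3 and 43.1 (C1qa), 11.2 and 22.04 (C1qb) and 12.6 and 19.2 (C1qc) in the H3.1K36M libraries, where all 3 passed the test. In tumors they were at 46784 to 94129, 38656 to 68806 and 37729 to 63006. The H3.1K36M values were 0.0201 to 0.056% of the tumor medians. Of 19 genes listed at 0 in the 4 H3.3 libraries and with a tumor median of at least 2000, 13 were above 0 in both H3.1K36M libraries, granzyme and myeloid genes among them, and the 19 had a median of 0.0205% of the tumor median in replicate 1 and 0.056% in replicate 2, with up to 0.192% at Gzmf. The part of such traces in the results was not tested. Ptprc, which encodes the leukocyte antigen CD45, was below 7 in all 6 cultured libraries, and the summed level of 20 macrophage markers was 1290 to 1299 in H3.3K36M and 881 to 954 in H3.1K36M cells. Of the 11 macrophage markers tested 4 were higher, the C1q genes included, and 2 lower.

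Genes of cell division were lower in H3.1K36M cells, where 32.9% of all genes were lower and 36.1% higher. Of 43 mitosis genes 42 were lower and 1 higher (median log2 -0.60), with the same counts after quantile normalisation, and of 49 DNA replication genes 34 were lower and 4 higher (median log2 -0.24; the higher count was 2 without H3.1K36M replicate 2). The differences were moderate. Mki67, the proliferation antigen, was at 21037 and 22283 in H3.3K36M, 13805 and 13536 in H3.1K36M and 17753 and 17259 in wild-type cells (log2 -0.66). Birc5, survivin, was at 5685 and 5966 in H3.3K36M, 2904 and 2909 in H3.1K36M and 4290.1 and 4083 in wild-type cells (log2 fold change -1.003 ± 0.04, adjusted p = 1.06e-11), and Nusap1, a spindle protein, at 3383 and 3582 in H3.3K36M, 1718 and 1734 in H3.1K36M and 3661 and 3437 in wild-type cells. The H3.1K36M libraries were the lowest of the 6 at all 3. Against wild-type cells, 33 mitosis genes were higher and 3 lower in H3.3K36M cells, and 4 were higher and 30 lower in H3.1K36M cells. For DNA replication the counts were 44 and 2 in H3.3K36M and 34 and 4 in H3.1K36M cells. Over all genes 39.5% were higher and 36.7% lower than in wild-type cells in H3.3K36M cells, and 42.0% and 37.4% in H3.1K36M cells, with the wild-type libraries shared. Control siRNA cells were lower than any of these lines (Birc5 1259 ± 57.8, Nusap1 914 ± 36.6). In bulk RNA, fewer cells of a kind and less RNA per cell cannot be told apart, so the share of dividing cells is not given by these levels.

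Promoters of late cell cycle genes are known for CCAAT boxes, bound by NF-Y, and for the CHR element TTTGAA. The first of these, on either strand, was found in 28 of 37 windows of 35 matched mitosis genes (75.7%), against 33.8% of all windows, and TTTGAA in 13 (35.1%), against 16.0%. The promoters of Cenpa, the centromeric H3, and Ccnb2, a mitotic cyclin, are printed as examples with CCAAT or its complement in capitals.
Cenpa, chr5:30666740-30666859, + strand: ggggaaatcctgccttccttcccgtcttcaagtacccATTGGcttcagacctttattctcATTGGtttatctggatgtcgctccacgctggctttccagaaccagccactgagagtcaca
Ccnb2, chr9:70421555-70421674, - strand: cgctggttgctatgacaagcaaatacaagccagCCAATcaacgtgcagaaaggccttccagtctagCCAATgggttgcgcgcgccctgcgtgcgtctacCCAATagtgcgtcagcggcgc
Cenpa was at 2632 and 2497 in H3.3K36M and 1326 and 1304 in H3.1K36M cells (log2 -0.96), and Ccnb2 at 3059 and 2988 against 1606 and 1598 (log2 -0.92). Both pairs were far apart against the spread of 2 libraries. Of 29 p53 targets and cell cycle inhibitors 17 were higher and 7 lower (median log2 0.41), where 36.1% of all genes were higher and 32.9% lower. Cdkn1a, which encodes p21, was at 5709 and 5662 against 8776 and 8752 (log2 0.62, adjusted p = 2.62e-10), and Mdm2, the ligase that limits p53, at 2369 and 2628 against 4029.6 and 4229. Perp, a p53 target of cell junctions, was lower (541 and 538 to 54.4 and 48.2, log2 -3.37), as was the inhibitor Cdkn2c (1318 and 1316 to 578 and 571). Of 19 immediate early genes 12 were higher and 3 lower, with Atf3 at 110.4 and 103 against 324 and 342.

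Stress response and cholesterol synthesis genes were mostly higher. Of 38 genes that respond to ATF4 or to unfolded proteins 29 were higher and 5 lower (median log2 0.36), and 24 and 7 after quantile normalisation. The shares over all genes were 36.1% higher and 32.9% lower. ATF4 with C/EBP partners binds a composite element, and TGATGNAA on either strand was found in 9 of 34 windows of 32 matched genes (26.5%), against 3.45% of all windows. The promoters of 2 members with large differences carry it, in capitals.
Slc7a11, chr3:50443614-50443733, - strand: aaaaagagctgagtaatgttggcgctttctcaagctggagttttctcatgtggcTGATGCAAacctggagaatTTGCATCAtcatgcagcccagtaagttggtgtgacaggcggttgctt
Chac1, chr2:119350992-119351111, + strand: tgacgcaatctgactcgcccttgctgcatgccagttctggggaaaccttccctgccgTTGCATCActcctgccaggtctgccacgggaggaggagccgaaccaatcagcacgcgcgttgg
Slc7a11, the cystine importer, was at 712 and 767 in H3.3K36M and 2203 and 2129.8 in H3.1K36M cells (log2 1.55, adjusted p = 0.000991), against 540 and 383 in wild-type cells, and control siRNA cells were at 1563 ± 120.4. Chac1, which degrades glutathione, was at 1325 and 1276 against 3019 and 3020.1 (log2 fold change 1.22 ± 0.04, adjusted p = 7.62e-12). Atf4 itself was at 10311 and 10251 against 16753 and 16906, and Hspa5, the main chaperone of the endoplasmic reticulum, at 21559 and 22603 against 41072 and 41142 (log2 0.90). At each of the 4 the H3.1K36M libraries were the highest of the 6 cultured libraries of the table. Control siRNA cells were above both H3.3 lines at Chac1 (1501 ± 65.5) and Hspa5 (31523 ± 206) as well as at Slc7a11.

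Cholesterol synthesis genes were higher at 19 of 26 and lower at 2 (median log2 0.56), and at 18 and 3 after quantile normalisation. For this and the next lists, the shares over all genes were 36.1% higher and 32.9% lower. Lss, lanosterol synthase, was at 2688 and 2576 in H3.3K36M and 5282 and 5094 in H3.1K36M cells (log2 0.98, adjusted p = 1.26e-11), and Hsd17b7 at 1519 and 1581 against 3425 and 3494 (log2 1.16). Against wild-type cells, 7 of the 26 were higher and 13 lower in H3.3K36M cells, and 21 were higher and 1 lower in H3.1K36M cells. Over all genes these shares were 39.5% and 36.7% in H3.3K36M and 42.0% and 37.4% in H3.1K36M cells, with the wild-type libraries shared. Of the regulators, Srebf1 was lower (2912 and 2663 to 1762 and 1797), and Srebf2, which drives this pathway, did not pass (14596 and 13265 to 14073 and 14364; adjusted p = 0.0205, as higher, without H3.3K36M replicate 1). The letters TCACNCCAC, a form of the sterol regulatory element, were in none of 24 windows of 17 matched genes and in 1.05% of all windows. Glycolysis and hypoxia genes were higher at 21 of 34 and lower at 5 (19 and 9 after quantile normalisation). Hk2, hexokinase 2, was at 603 and 611 against 1960.3 and 1829.8 (log2 1.64), while Epas1, which encodes HIF-2 alpha, was at 37.8 and 40.3 against 13.96 and 6.75 with 2370.3 and 2538 in wild-type cells. Of 45 genes of oxidative phosphorylation 28 were higher and 4 lower, all by less than 2-fold (median log2 0.15). After quantile normalisation the counts were 21 and 9, and the lower count was 1 without H3.1K36M replicate 2 or H3.3K36M replicate 1. Ribosomal protein genes were higher at 46 of 61 and lower at 5, but at 23 and 13 after quantile normalisation (median log2 0.15 and 0.03, where the median over all genes was 0.01 and 0.03); the lower count was 3 without H3.1K36M replicate 2. Rpl34, one of the lower ones, has many near copies and is uncertain: it was at 3682 and 6559 in H3.3K36M, 6499.7 and 4529 in wild-type and 354 and 384 in H3.1K36M cells, and at 379 to 884 in tumors.

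**Figure D5:**
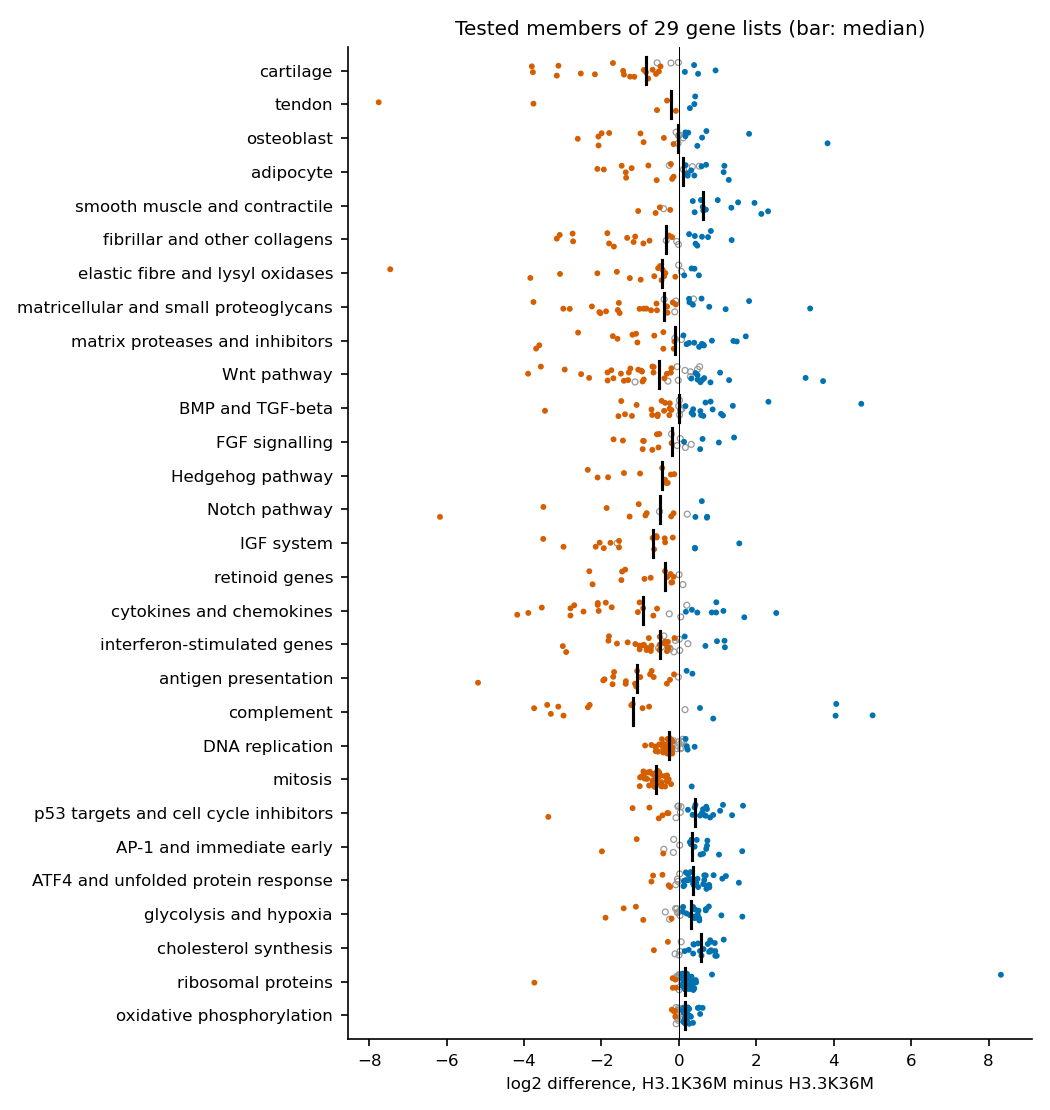
Log2 difference of H3.1K36M minus H3.3K36M cells for each tested member of the gene lists: filled points passed the test (blue higher, orange lower), open points did not, and the black bar is the list's median. Mitosis genes lie to the left of 0 except for 1, and cholesterol synthesis and ATF4 genes mostly to the right.

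Markers of identity and of other cell types were checked in both lines. For these lists, the shares over all genes were 36.1% higher, 32.9% lower and 9.91% at least 2-fold lower. The 19 mesenchymal identity genes summed to 1025830 to 1080890 in H3.3K36M and 1017050 to 1022380 in H3.1K36M cells. Of 18 tested, 6 were higher and 9 lower (3 and 9 after quantile normalisation), 2 of them at least 2-fold. Vim, vimentin, was at 175014 and 169776 against 201024 and 200017. Pdgfra, the receptor of early mesenchyme, was lower (5722 and 5779.7 to 2598 and 2580.4, log2 fold change -1.15 ± 0.03, adjusted p = 7.13e-13). The 15 endothelial markers summed to 3068 to 3189 in H3.3K36M and 1220 to 1269 in H3.1K36M cells, and 6 of 6 tested were lower (5 after quantile normalisation), with Cldn5 and Sox17 at 0 in all 4 libraries. Flt1, a receptor of VEGF, held most of their sum, with 2282 and 2239 in H3.3K36M and 966 and 931 in H3.1K36M cells. Epithelial and keratinocyte markers summed to 6090 to 6116 in H3.3K36M and 1889 to 1995 in H3.1K36M cells, with Epcam and Cldn4 at 0 in all 4. Of the 11 tested 2 were higher and 6 lower (4 and 5 after quantile normalisation). Msln, mesothelin, was at 4964 and 4980.2 against 1272 and 1318, with 66.8 and 47.6 in wild-type cells. Schwann and neural markers summed to 3893 to 4073 in H3.3K36M and 5852 to 5963 in H3.1K36M cells, with Foxd3 at 0 in all 4. Stmn2 alone differed by more than the sum did, and the rest of the list summed lower in H3.1K36M cells. Of the 11 tested 1, Stmn2, was higher and 4 were lower (2 higher without H3.3K36M replicate 2), while 14 lymphocyte and NK markers summed to no more than 35.5 in any of the 4 libraries, with Cd3e, Ms4a1 and Ncr1 among those at 0 in all of them. Hba-a1, an alpha globin, was at 876 and 833 in H3.3K36M, 248 and 230 in H3.1K36M and 2.67 and 8.66 in wild-type cells (adjusted p = 0.0281; 0.0625 without H3.1K36M replicate 2). Hba-a1 was the only 1 of 7 red cell markers that passed the minimum. Its near copy Hba-a2 and the beta globin Hbb-b1 were at 0 in all 4 libraries. Near copies share reads, so Hba-a1 is uncertain. The part of other cell types in the differences was not tested.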

How the data were processed

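RNA was extracted with Trizol and sequenced from TruSeq libraries, per the labels' protocols. Per the submitters' processing notes, Bowtie 1.0.0, RSEM 1.2.12 and the mouse build mm9 were used. The deposited values are a signal: RSEM estimated counts that the authors divided by 1 factor per library, with 23343297 to 56041798 estimated reads per cultured library and 24659432 to 55811835 per tumor. Depth was recovered from the step between low values. RSEM estimates need not be whole, so a count model was not used.

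Genes with a value of at least 10 in at least 2 of the 4 libraries were fitted with limma 3.58.1 (R 4.3.3) on log2(value + 1) over the 6 cultured libraries of 3 lines, without a block, with a mean-variance trend, robust variances and 3 residual degrees of freedom. Tests were two-sided, p-values were adjusted over all 13112 genes by Benjamini-Hochberg, and the threshold was 0.05. Fold changes of low genes are understated on this scale. The fit was tested on simulated data. Control siRNA values were multiplied by 1.33 (1.32 to 1.35), the ratio of the tables over the 4 libraries they share. Levels compare libraries, not genes, since they are not per length.

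The genes compared and the 51 gene lists were chosen with earlier results of these data known. The genes named were the 12 highest and 12 lowest by fold change among called genes with a mean of at least 100 in 1 line and no overlap, up to 4 called members of each list by size of the difference, the H3 genes and a few regulators, and the Hox genes past the minimum (228 in all). Another 42 were named for their role after their values were seen: Sox6, Chst11, Scx, Acsl1, Lpl, Postn, Spp1, Flna, Myh11, Mylk, Ogn, Lox, Vcan, Rspo2, Lrp5, Lrp6, Notum, Axin2, Gli1, Ptch1, Igfbp4, Igfbp7, Tgfb2, Tgfbr3, Gata6, Irx3, Cxcl12, Ccl2, Ccl9, Il33, Tap1, Ifit3, Irgm1, Ifi35, Isg20, Mki67, Cdkn1a, Mdm2, Atf4, Srebf1, Srebf2 and Vim. Some genes that the rule names are not reported here. Promoters come from RefSeq (GRCm38.p6) and coding sequences from GENCODE M21 transcripts (GRCm38). The files use mm9, so no other coordinates are given. Promoters were searched in the 250 bases before the start. Alternatives were pseudocounts of 0.5 and 5, other filters, quantile and median-of-ratios scaling, a fit over 4 libraries, variances without trend, a replicate block and leaving out each library. The siRNA libraries against methyltransferases were not analysed here.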

Additional observations from a re-analysis of the deposited data

Results flagged for a closer look

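Among the 24 leading genes, the 6 tumors grown from H3.3K36M cells were checked for a single library far from the others, and 7 genes had one. A chance rate of about 1 in 20 is not a fair measure here. Sprr2a1 and Sprr2a2 have the same values, and Prl4a1 and Asxl3 were near 0 in all 6 tumors. The count of 7 is therefore not read as an excess. Prl4a1 was at 0.904 in 1 tumor and listed at 0 in the other 5. Gpr176 reached 75.7 in 1 tumor, with 14.2 to 31.3 in the others. Pkp2 reached 357, with 20.2 to 33.5 in the others. Has2 reached 103, with 2.71 to 24.5 in the others. Asxl3 was listed at 0 in 1 tumor and at 1.01 to 1.44 in the others. Sprr2a1 and Sprr2a2, which share their reads, were at 2077 in 1 tumor and at 42.7 to 403 in the others. None of these tumors enters the comparison of the lines.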

How the results depend on the processing

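All values rest on 2 libraries per line. The counts of higher and lower genes (4738 and 4312) ran from 4038 to 4464 and from 3686 to 3812 when each library was left out, and the counts of at least 2-fold differences (370 and 1300) from 338 to 351 and from 1122 to 1225. After quantile normalisation 613 genes were at least 2-fold higher. With a minimum of 50, which tests fewer genes, 724 were at least 2-fold lower. With the replicate number as a block the 2-fold counts were 371 and 1294. Libraries of the same number did not deviate together (correlations from -0.0248 to 0.0225), so the numbers share only a name.

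Of 3721 fold changes of the 270 genes chosen for naming under the alternatives, 3617 kept the call or stayed uncalled. Another 91 lost the call, 13 gained one and 0 changed direction with a call. A change of direction was not counted where neither fit called the gene. The call of 28 genes changed without 1 library. Without the variance trend and robust fit, Nsd1 (adjusted p = 0.0551 in limma), Ash1l (0.0816), Eed (0.0641), Runx2 (0.1) and Hist1h3f (0.11) did not pass. The median of a list changed sign for HoxB (0.18), germline (0.21), Schwann and neural (0.041) and lymphocyte and NK markers (0.34) after quantile normalisation, and for adipocyte genes (-0.14) and lymphocyte and NK markers (0.00331) without a filter. It did so for adipocyte genes (-0.00924) with a minimum of 10 in 2 of the 6 fitted libraries. For matrix proteases the median was 0.12 with a minimum of 50, 0.044 without H3.1K36M replicate 1, -0.11 without H3.3K36M replicate 1 and 0.031 without H3.3K36M replicate 2. The cause was not tested. Weakly expressed genes are limited by depth.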

Other observations

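Cdkn2a, which encodes the tumor suppressors p16 and ARF, was at 0 and 1.44 in wild-type H3.3, 1.16 and 0 in H3.3K36M and 10.5 and 7.67 in H3.1K36M cells, and at 33.3 to 109.7 in tumors. Its neighbour Cdkn2b was at 5.34 and 11.6 in wild-type H3.3, 2.89 and 0 in H3.3K36M and 4.88 and 5.75 in H3.1K36M cells. Mtap, next to both, was at 14908 and 15558 in H3.3K36M and 14998 and 14906 in H3.1K36M cells (adjusted p = 0.467 with limma), and passed as lower after quantile normalisation (log2 -0.14, adjusted p = 0.00095). Cdkn2a and Cdkn2b were therefore low in all 3 lines, and Mtap was high in both K36M lines.

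Of 22 imprinted genes tested 7 were higher and 12 lower, 8 of them at least 2-fold lower. For this and the next lists, the shares over all genes were 36.1% higher, 32.9% lower and 9.91% at least 2-fold lower. Of 8 skeletal muscle genes 2 were higher and 5 lower, and of 7 germline genes 2 were higher and 3 lower, where the higher count was 0 without H3.3K36M replicate 1 and 1 without either H3.1K36M library. Of 7 small proline-rich and prolactin genes 1, Prl4a1, was higher and 5 were lower.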
